A study of Caenorhabditis elegans with 8 samples.

Results

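RNA from dissected gonads of hda-3(ok1991) mutant worms was compared with RNA from wild-type (wt) gonads over all genes of Caenorhabditis elegans. The comparison used 5 of the 8 libraries of the series, chosen by their titles: hda-3 replicates 4 and 5 against wt replicates 3, 4 and 5. The remaining 3 libraries come from sin-3(syb2172) gonads. They entered the statistical model and 1 direct comparison with hda-3. The labels give no allele or treatment that the groups share. Each library pooled the gonads of 9 to 12 young adult worms, dissected in cold water. The labels state 3 independent biological replicates per strain, and 2 hda-3 libraries were analysed here. Of the 46934 gene identifiers in the count files, 10302 had enough reads to be tested. Expression is given as CPM, the reads of a gene scaled to a common library total, on library sizes normalised by edgeR's TMM method. CPM are not divided by gene length, so they compare libraries for 1 gene and not 1 gene with another.

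The enzyme HDA-3 takes acetyl groups off histone tails and belongs to the class I deacetylases. Class I deacetylases work in several co-repressor complexes, and 1 of them is built on the scaffold protein SIN-3. A hermaphrodite germ line makes sperm in the last larval stage and then switches to oocytes for the rest of adult life. The gonad of a young adult therefore holds dividing germ cells, germ cells in meiosis, growing oocytes, stored sperm, and the somatic sheath and spermatheca around them. These are mixtures of cells, and in such RNA fewer cells of a type and less RNA per cell cannot be told apart.

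Reads counted on genes numbered 14550417 to 23927346 in the hda-3 libraries and 16979891 to 23535429 in the wt libraries. Nuclear ribosomal RNA took 48.2 to 50.9% of them in hda-3 and 47.7 to 64% in wt. Reads outside ribosomal RNA were spread over more genes in hda-3 gonads: the 100 most abundant genes held 31.8 and 34.3% of them in the hda-3 libraries, against 61.1, 53.7 and 52.4% in wt replicates 3, 4 and 5. The TMM factors were 1.62 and 1.60 in hda-3 and 0.548, 0.631 and 0.960 in wt. The scaling between the groups therefore carries weight, most of all for abundant genes. With scaling by totals outside ribosomal RNA in place of TMM, the median log2 fold change of all genes was 0.87, against -0.02 with TMM. It was 0.12 with DESeq2's size factors (RLE) and 0.17 with TMM on autosomal genes. Changes below are relative to the TMM median. Marker genes of the germ line were all detected, with 12 of 12 tested in both groups. The libraries are amplified without molecular identifiers, so intervals given for counts cover counting error only.

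The mutated gene itself was lower in the mutant. The gene hda-3 (WBGene00001836, chromosome I, minus strand, 11912793 to 11917712 in WBcel235) had 13.9 and 18.7 CPM in hda-3 gonads, against 28.1, 28.5 and 39.1 CPM in wt gonads. Both hda-3 libraries lay below every wt library, and edgeR gave a difference of -0.98 on the log2 scale (SE 0.25, adjusted p = 0.0178). It missed the threshold in 3 of the fits that left out 1 library: hda-3 replicate 4 (-0.76, 0.264), wt replicate 5 (-0.81, 0.0655) or sin-3 replicate 4 (-0.81, 0.0673). The value was -0.08 (adjusted p = 0.891) when totals outside ribosomal RNA set the scale. Counts cover the whole gene and do not tell which part of it the mutant's reads come from. Of 23 tested genes for the SIN3 complex and for deacetylases, hda-3 was the 1 member called in either direction, and 2 members were called higher with totals outside ribosomal RNA. The related class I genes hda-1 and hda-2 had log2 fold changes of -0.43 (adjusted p = 0.196) and -0.00 (0.993). For hda-1 the sign turned with totals outside ribosomal RNA (0.49), and for hda-2 it depended on the scaling. The gene sin-3 had 58.0 and 57.2 CPM in hda-3 gonads, against 51.2, 57.5 and 56.4 CPM in wt gonads (0.07, adjusted p = 0.870).

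Far more genes rose than fell in hda-3 gonads, and most of those that rose were close to silent in wt. Of the 10302 genes tested, 1390 (13.5%) were called higher and 501 (4.86%) lower, 1891 in all (18.4%). The higher genes had a median log2 fold change of 6.07, with quartiles of 4.35 and 7.22. Their median level was 4.47 CPM in hda-3 gonads and 0.0874 CPM in wt gonads. Of the 1390, 1267 (91.2%) averaged below 1 CPM in wt, and 281 of those reached 10 CPM or more in hda-3. There were 277 with no read in any wt library. These passed the filter on low counts through mutant libraries alone, so only a rise could be called for them. With no such filter, 1596 genes were called higher and 636 lower. Coding genes made up 1344 of the higher genes and pseudogenes 44. The lower genes had medians of 19.4 CPM in hda-3 gonads and 38.1 CPM in wt gonads and a median log2 fold change of -1.23. Of these, 295 averaged 10 to 100 CPM and 83 averaged 100 to 1000 CPM. Without each of the 8 libraries in turn, 925 of the higher genes (66.5%) kept their call every time, and 37 of the lower genes (7.39%) did. With totals outside ribosomal RNA, 2041 genes (20.6%) were called higher and 34 (0.343%) lower, 1349 of the higher genes and all 34 of the lower among the calls with TMM, and 111 of 494 lower genes changed sign.

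**Figure D1:**
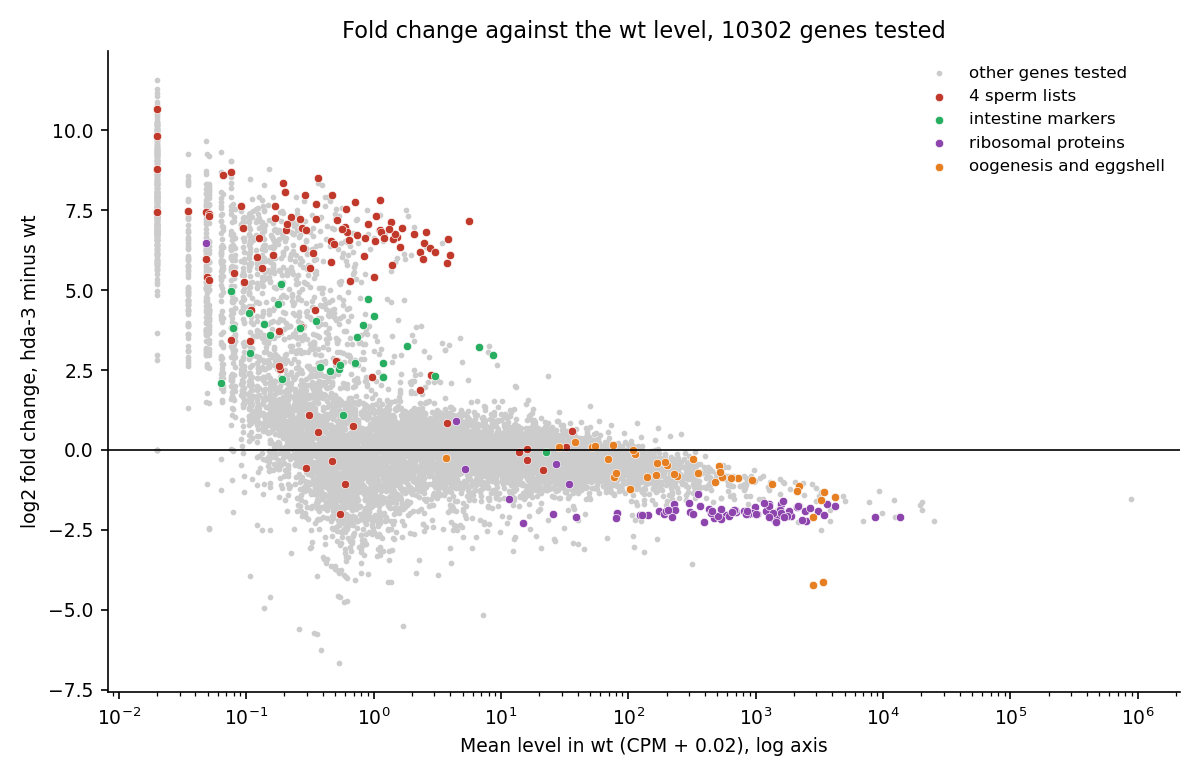
Log2 fold change of each of the 10302 tested genes, hda-3 minus wt (vertical axis), against its mean level in wt in CPM with 0.02 added, on a log axis. Points are genes, coloured by gene list. Genes of the 4 sperm lists (red) and intestine markers (green) lie mostly at low wt levels and above 0, ribosomal protein genes (purple) lie near -2 at high levels, and the lowest orange points are perm-2 and perm-4.

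The genes of sperm formed the clearest group among the rises. Major sperm proteins (MSPs) are the small cytoskeletal proteins whose polymers move the crawling sperm of nematodes, and they also act as a signal that triggers oocyte maturation. Of 31 MSP genes matched in the files, 29 were tested, and all 29 rose (median log2 fold change 6.82, range 6.18 to 10.66), beside 13.5% of all genes. Members with few wt reads passed the filter on low counts through mutant libraries, which favours rises among the genes tested. With no such filter, 29 of 30 MSP genes with a read were called higher. The gene msp-77 (WBGene00003464, chromosome IV, plus strand, 9894631 to 9895014) had 42.8 and 34.6 CPM in hda-3 gonads, against 0.592, 0.466 and 0.266 CPM in wt gonads (6.52, SE 0.52, adjusted p = 3.1e-05). For msp-10 the levels were 36.6 and 28.5 CPM in hda-3 gonads, against 0.254, 0.187 and 0.177 CPM in wt gonads (7.30, SE 0.63, adjusted p = 3.42e-05). The groups did not overlap for any tested MSP gene. For msp-32, 382 and 154 reads in the hda-3 libraries stood against 0 reads in all 3 wt libraries, so it was at least 130-fold higher, taking a floor of 3 counts over the wt group. The fitted fold changes of msp-32 and of other genes with no wt read depend on the prior count of the fit. Between 26 and 29 MSP genes were called in fits without 1 library. The gene msp-38 (8.5, adjusted p = 0.0028) was not called without hda-3 replicate 4 (adjusted p = 0.0550). MSP genes are near-identical copies, and reads that matched several places were not counted, so the split among them is uncertain.

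Summed over the list, MSP transcripts were 1.18 and 0.934% of reads outside ribosomal RNA in hda-3 gonads, against 0.00817, 0.00434 and 0.00312% in wt gonads, a ratio of means of 203. Both hda-3 libraries lay above all wt libraries, and the exact two-sided permutation p was 0.2. That is the smallest this test gives for 2 against 3 libraries, because it doubles the p of a single tail.

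**Figure D2:**
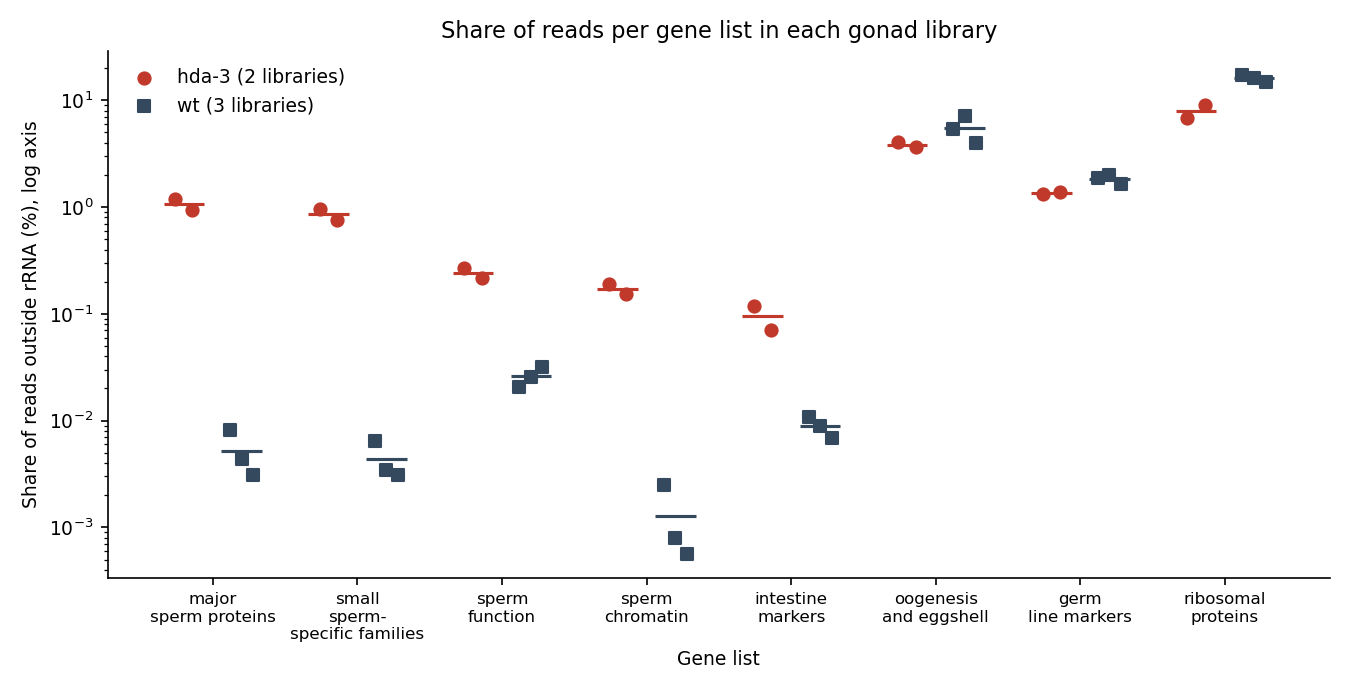
Share of reads outside ribosomal RNA taken by each of 8 gene lists, in percent on a log axis, with 1 point per library (circles hda-3, squares wt) and a line at each group mean. The 4 sperm lists and the intestine markers are higher in both hda-3 libraries than in any wt library, and ribosomal proteins are lower (6.89 and 8.96% in hda-3, against 14.8 to 17.3% in wt).

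Small gene families with sperm-specific expression (ssp, ssq, nspd, nsph, sss and msd) rose alongside. Of 35 tested members, 31 were called higher (88.6%, beside 13.5% of all genes tested) and 0 lower, with a median of 6.83. The remaining 4 were ssp-32 (3.44, adjusted p = 0.0765), nsph-1.2 (0.83, 0.0836), nsph-4.3 (-0.57, 0.767, and 0.30 with totals outside ribosomal RNA) and ssp-37 (-2.01, 0.314). The gene ssp-10, which encodes a small protein related to the MSPs, had 115 and 114 CPM in hda-3 gonads, against 0.676, 0.280 and 0.398 CPM in wt gonads (7.98, SE 0.38, adjusted p = 1.34e-06). The hda-3 libraries were close to each other for this gene and far above every wt library. Among the largest rises in mean CPM, nsph-3.2 stood at 784 ± 69.7 CPM in hda-3 gonads (SD, n = 2) and 5.60 ± 5.12 CPM in wt gonads (n = 3). Its call (7.16, adjusted p = 0.0119) was lost without either hda-3 library (0.112 and 0.0773) or without wt replicate 4 (0.0531). The sperm-specific genes ssq-1 (6.61, adjusted p = 0.00169) and ssq-2 (6.83, 9.6e-04) kept theirs in every such fit.

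Sperm chromatin changed in the same direction. Nematode sperm package their DNA with small basic proteins encoded by spch-1, spch-2 and spch-3, and with a histone H2A variant encoded by htas-1. All 4 genes rose. The level of spch-3 was 214 and 213 CPM in hda-3 gonads, against 8.03, 1.21 and 2.08 CPM in wt gonads (5.85, SE 1.02, adjusted p = 0.00563). The level of htas-1 was 13.5 and 15.1 CPM in hda-3 gonads, against 0.169, 0 and 0.0443 CPM in wt gonads. With 3 reads of htas-1 in all of wt, the pooled ratio was 212 (95% interval 72.4 to 1031). Neither spch-3 nor spch-1 was called when the fit lacked hda-3 replicate 4 (adjusted p = 0.0769 and 0.0888) or replicate 5 (0.0561 and 0.0551). A histone H3 variant gene, his-70, rose as well, with 5.28 and 6.57 CPM in hda-3 gonads, against 0.0845, 0.0933 and 0.0443 CPM in wt gonads. It had 1 read in each wt library, and the pooled ratio was 86.7 (29.4 to 422).

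Genes known from sperm-defective mutants, with related sperm genes, rose less evenly. Of 38 tested, 25 were called higher (65.8%, beside 13.5% of all genes tested) and 0 lower, with a median of 3.79. The gene spe-11, whose product sperm deliver to the embryo, had 42.1 and 33.2 CPM in hda-3 gonads, against 0.507, 0 and 0.221 CPM in wt gonads (7.24, adjusted p = 3.12e-04). For comp-1, which affects competition between sperm, the levels were 15.6 and 12.0 CPM in hda-3 gonads, against 0.423, 0.373 and 0.0885 CPM in wt gonads (5.69, 6.84e-04). The toxin gene peel-1, whose product is carried in sperm, rose by a log2 fold change of 4.38 (adjusted p = 1.52e-04). Smaller rises were those of the kinase gene spe-6 (1.87, 0.00671), the myosin VI gene spe-15 (2.34, 0.00377) and the sperm channel gene spe-41 (2.28, 0.00282).

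Some members were not called. The gene spe-44, which encodes a transcription factor of early spermatogenesis, had 13.9 and 12.3 CPM in hda-3 gonads, against 11.9, 13.8 and 15.5 CPM in wt gonads (-0.07, adjusted p = 0.902). The groups overlapped for spe-44. The translational regulator gene cpb-1 (-0.30, 0.673) and the zinc transporter gene zipt-7.1 (-0.61, 0.105) were not called, with signs that turned under totals outside ribosomal RNA (0.59 and 0.29, and 0.84 for spe-44). The vesicle gene spe-39, which other tissues use too, had 0.08 (0.838). The sperm surface gene spe-9 had 0.129 and 0.558 CPM in hda-3 gonads, against 0.423, 0.840 and 0.0885 CPM in wt gonads, too few reads to place it. The genes fer-1 (2.54, 0.0545) and spe-38 (3.40, 0.0526) missed the threshold.

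Over the 4 sperm lists together, 89 of 106 tested genes were called higher (84.0%, beside 13.5% of all genes tested) and 0 lower. Of the 106, 95 lay above all wt libraries, where 25.4% of all tested genes were. These 4 lists are the ones described above. The count of genes called higher was 80 to 94 in fits without 1 library and 93 with totals outside ribosomal RNA. Together they were 2.60 and 2.06% of reads outside ribosomal RNA in hda-3 gonads, against 0.0376, 0.0340 and 0.0388% in wt gonads. With no filter on low counts, 86 of 114 genes of these lists with a read were called higher.

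Among genes with close relatives, gsp-3, gsp-4 and cyc-2.2 rose, gsp-1 and gsp-2 were not called, and cyc-2.1 fell. Both phosphofructokinase genes rose. Type 1 protein phosphatase is encoded by gsp-1 and gsp-2, used in many tissues, and by gsp-3 and gsp-4, which act in sperm. The level of gsp-3 was 157 and 137 CPM in hda-3 gonads, against 2.11, 1.31 and 0.487 CPM in wt gonads (6.92, SE 0.98, adjusted p = 0.00195). The gene gsp-4 had a log2 fold change of 7.53 (8.65e-04), and gsp-1 and gsp-2 had 0.10 (0.825) and -0.12 (0.738). Among 38 tested genes of the respiratory chain, the cytochrome c gene cyc-2.2 was the 1 that rose. It had 41.4 and 32.1 CPM in hda-3 gonads, against 0.169, 0.0933 and 0.0885 CPM in wt gonads (8.30, 2.47e-04). Its paralog cyc-2.1 fell (-1.32, adjusted p = 0.0254), a call that 5 of the fits without 1 library and the scaling by totals did not make (-0.42, 0.267). In glycolysis, the phosphofructokinase gene pfk-1.2 had 242 and 112 reads in the hda-3 libraries and 0 in wt, at least 86-fold higher with a floor of 3 counts over the wt group. Its paralog pfk-1.1 rose by 1.12 (0.0259), a call lost without any 1 of the hda-3 or wt libraries. The ribosomal protein gene rpl-42 had 86 and 65 reads in hda-3 and 1 read in all of wt, a pooled ratio of 110.0 (19.4 to 4374). It was the 1 of 78 ribosomal protein genes that rose.

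Sex determination genes, whose products act before or during the sperm decision, had 1 call in each direction. The gene fog-3, whose product promotes the sperm fate, had 3.57 and 2.45 CPM in hda-3 gonads, against 0.338, 0.280 and 0.487 CPM in wt gonads (2.97, SE 0.56, adjusted p = 0.00267). Its partner in that decision, fog-1, had 23.1 and 20.9 CPM in hda-3 gonads, against 20.1, 18 and 16.5 CPM in wt gonads (0.28, 0.369). The groups did not overlap for either gene, and fog-1 was not called. Of all genes tested, 25.4% had both hda-3 libraries above every wt library. Of 21 sex determination genes tested, fog-3 was higher and fog-2 lower (-0.79, 0.0312), with a list median of 0.02. Each made up 4.76% of the list, beside 13.5% higher and 4.86% lower over all genes tested. Higher genes of this list numbered 5 without sin-3 replicate 5 or with all sin-3 libraries left out, and 4 with totals outside ribosomal RNA. The fall of fog-2 turned to 0.13 with totals outside ribosomal RNA, and it was lost without any 1 of the hda-3 and wt libraries (up to 0.310 without hda-3 replicate 4) or without sin-3 replicate 4 (0.127). The Argonaute genes alg-3 and alg-4, whose proteins carry small RNAs during spermatogenesis, both rose. The level of alg-4 was 24.1 and 20.1 CPM in hda-3 gonads, against 0.423, 0.187 and 0.221 CPM in wt gonads (6.33, SE 0.51, adjusted p = 3.42e-05). The level of alg-3 was 14.4 and 14.2 CPM in hda-3 gonads, against 0.676, 0.560 and 0.443 CPM in wt gonads (4.69, SE 0.54, adjusted p = 1.14e-04). The GATA factor gene elt-1 rose by 2.14 (0.0278), a call lost without either hda-3 library (0.112 and 0.110) or without wt replicate 3 (0.0805) or 5 (0.0711). It was the 1 of 12 tested somatic fate factor genes that rose, and the homeobox gene lim-4 fell (-4.14, 0.0168), a call lost without either hda-3 library (0.162 and 0.0678) or without wt replicate 4 (0.0595).

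Most genes that rose lay outside the sperm lists, 1301 of 1390, and many have only a sequence name. Among genes averaging at least 10 CPM over the hda-3 and wt libraries, the largest rise was that of C36H8.1 (chromosome IV). It had 30.3 and 32.8 CPM in hda-3 gonads, against 0.0845, 0 and 0.0443 CPM in wt gonads, 2 wt reads in all, and the pooled ratio was 705 (195 to 5828). A further 4 genes, T28H11.7, F58E6.5, C08F11.10 and K01H12.4, had 2 or 3 wt reads in all. The pooled ratios were 699 (193 to 5777) for T28H11.7, 618 (171 to 5106) for F58E6.5, 606 (167 to 5007) for C08F11.10 and 410.0 for K01H12.4. They averaged 26.1 to 29.3 CPM in hda-3 gonads. Both hda-3 libraries were above all wt libraries for each. The pseudogene WBGene00006057 had 74.0 and 125 CPM in hda-3 gonads, against 0.676, 0.280 and 0.0885 CPM in wt gonads (8.34, SE 0.53, adjusted p = 2.35e-05). Genes of the PDZ-domain family GIPC, gipc-1 (7.31, 0.00428) and gipc-2 (7.50, 0.0029), were among the largest rises in mean CPM. The call of gipc-1 was lost without hda-3 replicate 4 (0.0654).

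Markers of the intestine, which lies next to the gonad in the worm and makes its yolk, were also higher in hda-3 libraries. Of 30 markers, 29 were tested, 21 were called higher (72.4%, beside 13.5% of all genes tested) and 0 lower, with a median of 3.22. Their summed share was 0.119 and 0.0701% of reads outside ribosomal RNA in hda-3 gonads, against 0.0109, 0.00890 and 0.00692% in wt gonads. The aspartyl protease gene asp-1 had 17 and 17.4 CPM in hda-3 gonads, against 2.2, 0.373 and 0.398 CPM in wt gonads (4.18, SE 0.64, adjusted p = 6.35e-04). The yolk protein gene vit-1 had 7.63 and 8.33 CPM in hda-3 gonads, against 1.1, 0.653 and 0.398 CPM in wt gonads (3.52, SE 0.64, adjusted p = 0.00203). The groups did not overlap for either. Other markers differed between the hda-3 libraries. The intestinal actin gene act-5 had 31.3 CPM in hda-3 replicate 4 and 1.85 CPM in replicate 5, against 1.86, 2.61 and 0.930 CPM in wt gonads. Replicate 5 lay inside the wt range for act-5, which was called (3.25, adjusted p = 0.0461). The GATA factor gene elt-2, which defines the tissue, had 1.76 and 0.515 CPM in hda-3 gonads, against 0.845, 0.560 and 0.266 CPM in wt gonads (1.1, 0.329). The groups overlapped for elt-2. The gut esterase gene ges-1 had 1 read in the hda-3 libraries and 11 in the wt libraries. Higher markers numbered 9 without hda-3 replicate 4, 12 without wt replicate 4 and 14 to 20 without another library.

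Other somatic lists moved less. Muscle markers were 0.213 and 0.0562% of reads outside ribosomal RNA in hda-3 gonads, against 0.0485, 0.0490 and 0.0386% in wt gonads. None of 22 tested muscle genes was called higher by edgeR, and 4 were higher before adjustment (p under 0.05), and unc-22 was lower (-2.4, adjusted p = 0.0411). It was not called when the fit lacked hda-3 replicate 4 (0.327), wt replicate 3 (0.101), wt replicate 4 (0.115) or sin-3 replicate 4 (0.0596). Epidermis and cuticle markers were 0.114 and 0.0359% in hda-3 gonads, against 0.0278, 0.0132 and 0.0108% in wt gonads. The collagen gene col-179 was the 1 called of 7 tested (2.51, 0.0374; 1.33 and 0.393 without hda-3 replicate 4, and lost without wt replicate 4 or 5, at 0.110 and 0.108). For both lists the higher share was in hda-3 replicate 4. Of 9 tested neuron markers, 0 were called by edgeR, with 1 higher and 1 lower before adjustment (p under 0.05). Muscle genes called higher numbered 4 when hda-3 replicate 5 was left out, 1 without wt replicate 3 or 4, and 5 with totals outside ribosomal RNA. These lists moved beside the sperm lists, and their part in the other rises was not tested. Without the sperm lists and the intestine markers, 1280 genes were higher.

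**Figure D3:**
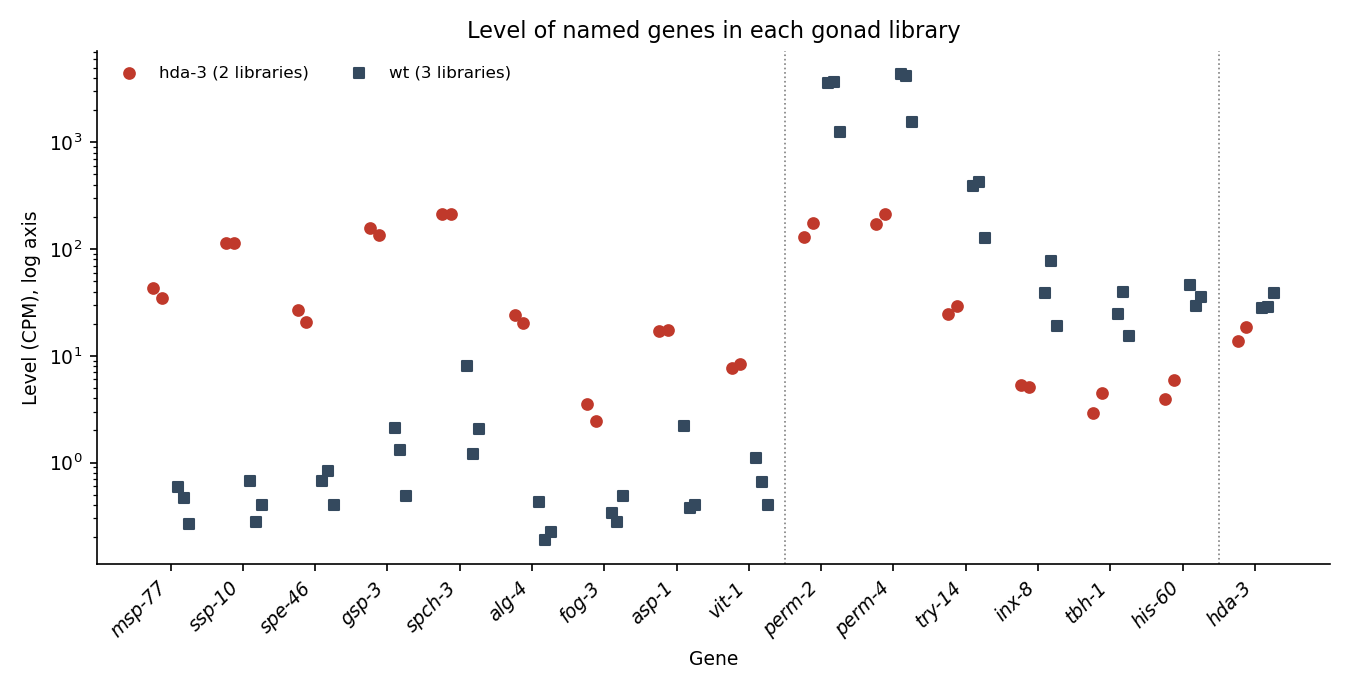
Level of 16 named genes in CPM on a log axis, with 1 point per library (circles hda-3, squares wt). Genes left of the dotted line at perm-2 are called higher and lie with both hda-3 points above all wt points; the 6 genes from perm-2 to his-60 are called lower and lie the other way, and hda-3, the mutated gene, stands at the right.

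Among genes averaging at least 10 CPM, the largest falls included genes with roles around the oocyte and the sheath. Of the 501 lower genes, all had both hda-3 libraries below all wt libraries, as 26.7% of the genes tested did. The 12 largest falls at that level were also called when totals outside ribosomal RNA set the scale. Products of perm-2 and perm-4 are parts of the vitelline layer, the outermost layer of the eggshell. The gene perm-2 (WBGene00016636, chromosome IV, plus strand, 1126790 to 1128865) had 129.8 and 176 CPM in hda-3 gonads, against 3626, 3663 and 1239 CPM in wt gonads (-4.22, SE 0.94, adjusted p = 0.00755). The nearby gene perm-4 (WBGene00016638, minus strand, 1121494 to 1125107) had 173 and 214 CPM in hda-3 gonads, against 4362, 4192 and 1536 CPM in wt gonads (-4.12, SE 0.87, adjusted p = 0.00532). In both genes wt replicate 5 was the lowest of the wt libraries and still far above hda-3. Leaving out hda-3 replicate 4 took both below the threshold, at adjusted p of 0.0965 for perm-2 and 0.0806 for perm-4, and leaving out replicate 5 did so for perm-2 (0.0533). With totals outside ribosomal RNA the falls were -3.27 (adjusted p = 0.00324) and -3.18 (0.00151).

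The X-linked gene try-14, which encodes a trypsin-like protease, had 24.5 and 29.2 CPM in hda-3 gonads, against 394, 425 and 126 CPM in wt gonads (-3.55, SE 0.62, adjusted p = 0.00176). Its call held in every fit without 1 library. The gap-junction gene inx-8, which acts in the sheath cells that contact the germ line, had 5.35 and 5.11 CPM in hda-3 gonads, against 38.6, 77.4 and 19 CPM in wt gonads (-3.10, SE 0.60, adjusted p = 0.00606). With either hda-3 library left out, inx-8 was not called (0.0762 and 0.0607). The related inx-9 fell by 2.18 on the log2 scale (0.0198), and by 1.41 without wt replicate 4 (adjusted p = 0.0611); its call was also lost without either hda-3 library (0.0649 and 0.127) and with totals outside ribosomal RNA (0.137). The enzyme gene tbh-1, which makes octopamine and is active in sheath cells, had 2.92 and 4.46 CPM in hda-3 gonads, against 24.7, 39.6 and 15.4 CPM in wt gonads (-2.85, SE 0.44, adjusted p = 8.69e-04). The SKN-1-dependent zygotic gene sdz-27 (-2.94, 1.78e-04), and the genes K07A1.13 (-3.07, 1.37e-04), C39D10.7 (-3.18, 0.00172) and T10D4.6 (-2.79, 7.4e-05) kept their calls in every fit without 1 library. The calls of the fatty acid and retinol binding protein gene far-2 (-2.78, 0.0311) and the peroxidase gene skpo-1 (-2.76, 0.0354) did not, at adjusted p of 0.192 and 0.263 without hda-3 replicate 4.

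The somatic gonad list as a whole was mixed. Of 24 tested markers, 5 fell (20.8%) and 1 rose (4.17%), beside 4.86% lower and 13.5% higher over all genes tested. The list median was -0.45 (0.50 with totals outside ribosomal RNA). The lower count was 1 without hda-3 replicate 4 or wt replicate 4, 0 without hda-3 replicate 5 and 3 without wt replicate 5 or sin-3 replicate 4, and 4 were higher without sin-3 replicate 5. The fallers were inx-8, inx-9 and 3 genes of basement membranes, ost-1 (-1.32, 0.0167), cle-1 (-1.74, 0.0364) and emb-9 (-1.27, 0.0381). None of these 3 was called with totals outside ribosomal RNA. The call of ost-1 was lost without hda-3 replicate 5 (0.138) or wt replicate 4 (0.0695) or 5 (0.0522). That of cle-1 was lost without hda-3 replicate 4 (0.280) or 5 (0.0790), wt replicate 4 (-1.09, 0.132) or sin-3 replicate 4 (0.0639). The myosin gene nmy-1 rose by 1.16 (0.0285), a call lost without either hda-3 library (0.232 and 0.0695) or without wt replicate 5 (0.0840). The list's share was 0.0771 and 0.0793% in hda-3 gonads, against 0.0457, 0.0775 and 0.0561% in wt gonads, so the groups overlapped.

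Oocyte genes other than perm-2 and perm-4 were not called lower with totals outside ribosomal RNA. Of 37 tested genes for oogenesis and the eggshell, 3 were lower (8.11%, beside 4.86% of all genes tested) and 0 higher. The list median was -0.78 and became 0.15 with totals outside ribosomal RNA. The lower count was 0 and 1 without hda-3 replicates 4 and 5, and 9 and 10 without sin-3 replicates 3 and 5. The pseudophosphatase gene egg-5 was the third (-1.23, 0.0291; -0.32 and 0.421 with those totals), and its call was lost without either hda-3 library (0.199 and 0.117), wt replicate 4 (0.108) or sin-3 replicate 4 (0.0808). The eggshell proteoglycan gene cpg-3 had 702 and 616 CPM in hda-3 gonads, against 3954, 2660 and 1821 CPM in wt gonads (-2.09, adjusted p = 0.0605). The yolk receptor gene rme-2 had 887 and 849 CPM in hda-3 gonads, against 2289, 2168 and 1927 CPM in wt gonads (-1.29, 0.0774). The groups did not overlap for either gene, and neither was called. Of 64 genes averaging at least 1000 CPM, 63 lay below all wt libraries. The maturation regulators oma-1 (-0.74, 0.0982) and lin-41 (0.09, 0.831) were not called, and the sign of oma-1 turned with those totals (0.18).

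Abundant housekeeping transcripts were lower on the TMM scale. Of 78 tested genes for cytosolic ribosomal proteins, 42 were called lower (53.8%, beside 4.86% of all genes tested), with a median of -1.93. Of the 78, 75 lay below all wt libraries, as did 26.7% of all genes tested and 63 of 64 genes averaging at least 1000 CPM. With totals outside ribosomal RNA the median was -1.0 and 4 genes were lower. The count was 0 without hda-3 replicate 4, 1 without hda-3 replicate 5, 4 without wt replicate 3 or 4, 18 without wt replicate 5, 10 without sin-3 replicate 4, and 72 and 74 without sin-3 replicates 3 and 5. With no hda-3 replicate 4, 1 hda-3 library remained, whose spread was taken from the other groups. The list held 6.89 and 8.96% of reads outside ribosomal RNA in hda-3 gonads, against 17.3, 16.2 and 14.8% in wt gonads (exact permutation p = 0.2). The ribosomal stalk gene rla-1 had 486 and 669 CPM in hda-3 gonads, against 3954, 3029 and 2758 CPM in wt gonads (-2.49, SE 0.77, adjusted p = 0.0438), and its call was lost in 6 of 8 fits without 1 library (up to 0.308). Fold changes followed the level across all genes. The median was -1.72 in 64 genes of at least 1000 CPM on average and -0.68 in 545 genes of 100 to 1000 CPM, against 0.28 in 3128 genes of 1 to 10 CPM. With totals outside ribosomal RNA those medians were -0.81, 0.24 and 1.2.

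Histone genes were lower too. The list holds variants and linker histones besides the core histone genes, which are transcribed mostly in cells that replicate DNA. Of 34 tested, 9 fell (26.5%, beside 4.86% of all genes tested) and his-70 rose, with a median of -1.27 (-0.34 with totals outside ribosomal RNA). All 9 were among the 24 tested genes named his (median -1.42). Of the 7 tested genes named hil, 0 were called lower (median -0.61). The largest fall was that of his-60, with 3.96 and 5.92 CPM in hda-3 gonads, against 45.6, 29.0 and 35.2 CPM in wt gonads (-2.89, SE 0.44, adjusted p = 5.64e-04). It was the 1 histone gene called lower with totals outside ribosomal RNA (-1.97, 0.00429), and its call held in every fit without 1 library. The count of lower histone genes was 1 without hda-3 replicate 4, 2 without hda-3 replicate 5 or wt replicate 3, and 4 without wt replicate 5. It was 15 when sin-3 replicate 5 was left out. Core histone genes are near-identical copies, and their counts share the uncertainty of the MSP genes.

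Of 61 tested genes for germ granules and small RNAs, 4 rose and 9 fell (median -0.31, 0.60 with totals outside ribosomal RNA). These were 6.56% higher and 14.8% lower, beside 13.5 and 4.86% of all genes tested. Without sin-3 replicate 5, 8 were higher and 10 lower, and without wt replicate 4, 6 were higher and 4 lower. The lower count was 0 and 1 without hda-3 replicates 4 and 5, 3 and 4 without wt replicates 3 and 5, and 2 without sin-3 replicate 4. Besides alg-3 and alg-4, the Argonaute gene vsra-1 rose, with 37.7 and 33.5 CPM in hda-3 gonads, against 15.3, 21 and 14.3 CPM in wt gonads (1.08, SE 0.21, adjusted p = 0.0029). The fourth was the X-linked germ granule gene meg-3 (0.89, 0.0295), a call lost without either hda-3 library (0.272 and 0.0551) or without wt replicate 3 (0.107) or 5 (0.100). The 9 that fell included the piRNA factor genes tofu-2 (-1.32, 0.00304) and pid-1 (-1.37, 0.0077), the cap-binding gene ife-3 (-1.14, 0.0179) and the double-stranded RNA binding gene rde-4 (-0.81, 0.0285). None of these 4 was called with totals outside ribosomal RNA, and rde-4 then had the opposite sign (0.11). Each was lost without hda-3 replicate 4 (0.0581, 0.0910, 0.214 and 0.203).

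Genes for meiosis, cell division and stem cell upkeep were called lower near the share over all genes tested (4.86%). The lower shares were 4.17% for meiosis, 5.88% for cell cycle and replication, and 5.56% for stem cells and meiotic entry. Higher calls were at 0, 0 and 5.56%, beside 13.5% of all genes tested. Of 48 meiosis genes, htp-2 (-1.07, 0.0246) and sun-1 (-0.77, 0.0273) fell and 0 rose. Of 34 cell cycle and replication genes, the GINS subunit genes psf-2 (-0.92, 0.0455) and psf-1 (-1.14, 0.0483) fell and 0 rose. Of 18 genes for stem cells and meiotic entry, fog-3 rose and the translational repressor gene gld-1 fell (-0.71, 0.0456), while the Notch receptor gene glp-1 had 0.24 (0.551). The falls of htp-2, sun-1, psf-2, psf-1 and gld-1 were not called with totals outside ribosomal RNA, where sun-1 (0.14), psf-2 (0.00) and gld-1 (0.20) had the opposite sign. Each was also lost without hda-3 replicate 4, at 0.232, 0.293, 0.371, 0.207 and 0.376, and without hda-3 replicate 5. Of 12 germ line markers all lay below the wt libraries, as did 26.7% of all genes tested. That held for 1264 of 3647 genes averaging 10 to 100 CPM, 423 of 545 at 100 to 1000 CPM and 63 of 64 above. The list median was -0.83 and became 0.08 with those totals. Of the 12 markers, 2 were called lower, pgl-3 (-1.08, 0.0323, a call lost without hda-3 replicate 4) and gld-1. The count was 6 without sin-3 replicate 3 or 5 and 0 without any other library. Of 23 apoptosis and DNA damage genes and 12 mitochondrially encoded genes, 0 were called by edgeR, with 1 of each list lower and 0 higher before adjustment (p under 0.05). Among 35 chromatin repressor genes, the X-linked neighbours lin-15B (1.14, 0.0054) and lin-15A (1.01, 0.0481) rose (5.71%, beside 13.5% of all genes tested). They overlap other coding genes, and the call of lin-15A was lost without any 1 of the hda-3 and wt libraries. Higher genes of this list numbered 7 without sin-3 replicate 5 and 6 with totals outside ribosomal RNA. None of 11 dosage compensation genes was called by edgeR, with 1 higher at an unadjusted p under 0.05 and 2 called higher without sin-3 replicate 5, and the catalase gene ctl-2 was the 1 of 27 heat shock and stress genes called (3.96, 0.0291; 1.58 and 0.635 without hda-3 replicate 4, and lost without any wt library).

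**Figure D4:**
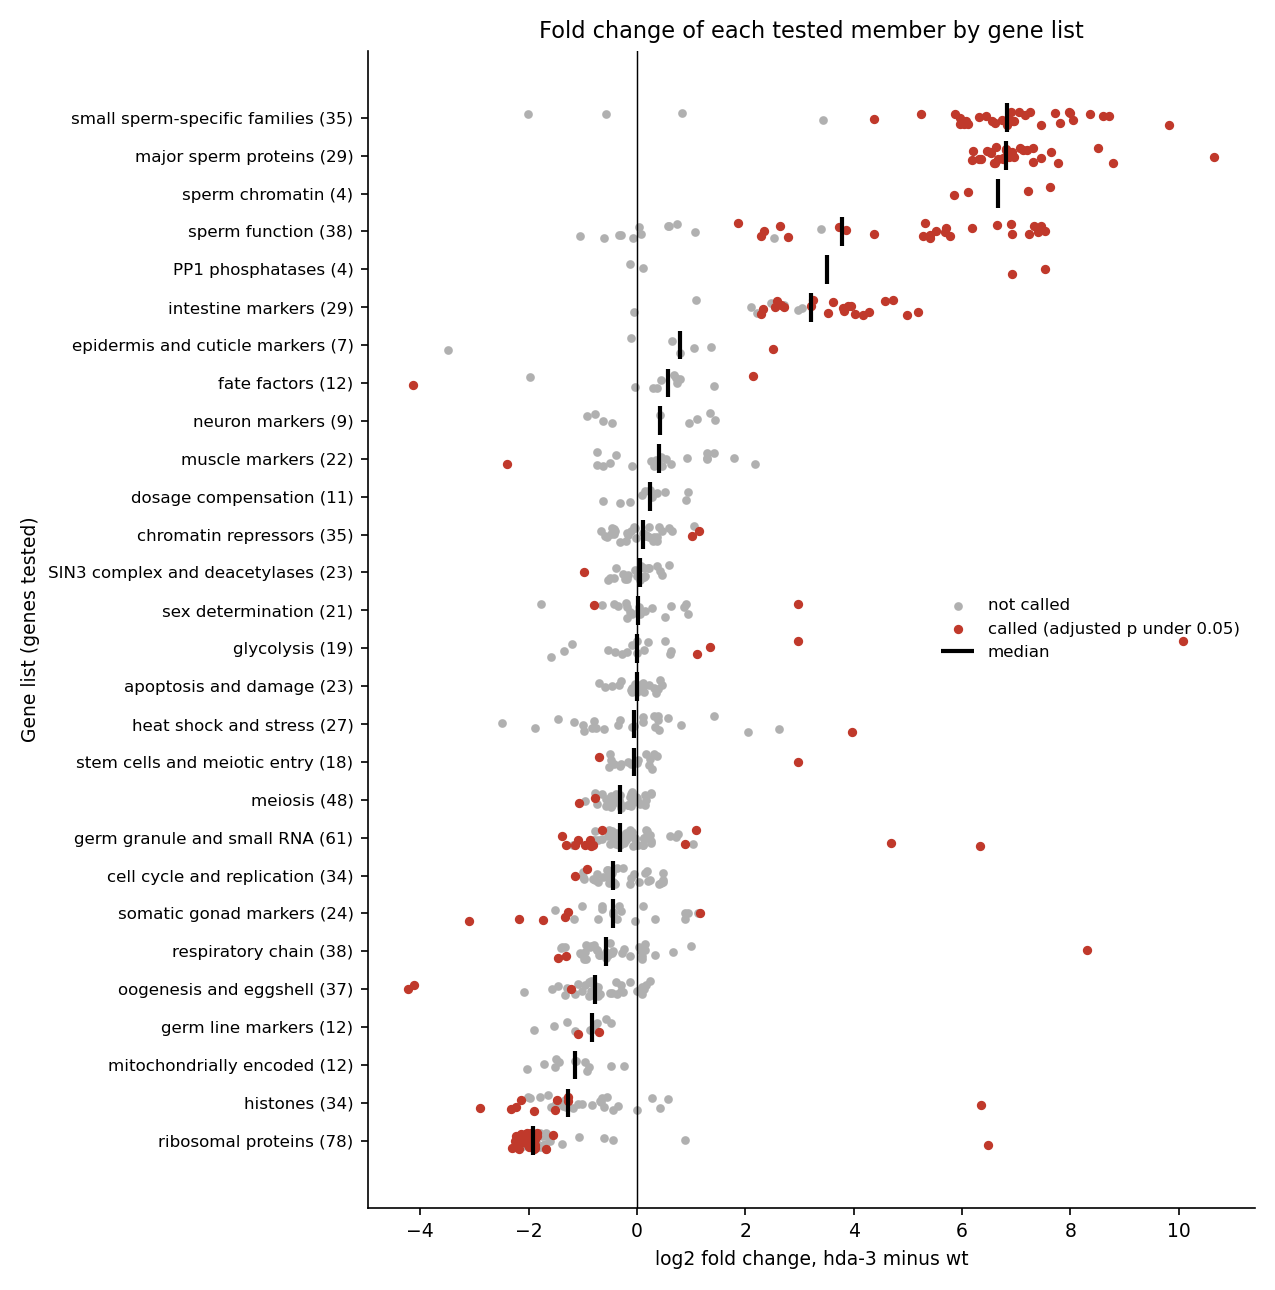
Log2 fold change, hda-3 minus wt, of every tested member of each gene list, 1 row per list with the number of genes tested in brackets. Red points are called at an adjusted p under 0.05, grey points are not, and black bars are medians. The MSP genes, the small sperm families and sperm chromatin lie near 6 to 7, and intestine markers near 3. Stem cell and sex determination medians lie near 0, and those of meiosis and germ granules near -0.3. Germ line markers and oogenesis genes lie near -0.8, and ribosomal proteins near -2.

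Compared directly with sin-3 gonads, hda-3 gonads again had higher sperm genes. In the test of hda-3 minus sin-3, 1308 of 10302 genes (12.7%) were higher in hda-3 and 267 (2.59%) lower. All 29 tested MSP genes were higher, with a median of 6.06, and the filter on low counts limits this count too. Over the 4 sperm lists, 93 of 106 tested genes were higher in hda-3 and 1 was lower. The gene msp-77 averaged 38.7 ± 5.77 CPM in hda-3 gonads and 0.495 CPM in sin-3 gonads (6.11, adjusted p = 4.12e-05). For alg-4 the means were 22.1 CPM in hda-3 gonads and 0.425 CPM in sin-3 gonads (5.61, 5.26e-05). The spermatogenesis factor gene spe-44 was higher in hda-3 than in sin-3 gonads (1.42, 0.00562), with 13.9 and 12.3 CPM in hda-3 gonads, against 6.68, 4.51 and 3.76 CPM in sin-3 gonads. For the intestine list, 5 of 29 markers were higher in hda-3 than in sin-3 gonads, with a median of 1.39. Leaving out hda-3 replicate 4 gave 1, leaving out replicate 4 of either wt or sin-3 gave 2, leaving out wt replicate 5 gave 3, and leaving out sin-3 replicate 5 gave 8. Its share was 0.119 and 0.0701% in hda-3 gonads, against 0.0122, 0.0417 and 0.0519% in sin-3 gonads.

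Some of the changes differed between the mutants, and for others no difference was called. The genes perm-2 (-4.14, adjusted p = 0.00823), perm-4 (-3.96, 0.00648), try-14 (-3.29, 0.00275), inx-8 (-2.58, 0.0142) and tbh-1 (-4.02, 2.12e-04) were lower in hda-3 than in sin-3 gonads. Against wt, 5 of 24 tested somatic gonad markers were higher in sin-3 gonads and 0 lower. The median of this list was 0.92 in sin-3 against wt and -0.45 in hda-3 against wt. Between the mutants, 9 of the 24 were lower and 0 higher in hda-3 than in sin-3 gonads, with a median of -1.30. The lower count was 4 without hda-3 replicate 4, 5 without sin-3 replicate 4 and 6 without hda-3 replicate 5, and 2 markers were higher without sin-3 replicate 5. The difference was not called for his-60 (-0.18, 0.849), T10D4.6 (-0.54, 0.249), rla-1 (-0.54, 0.716), vsra-1 (-0.51, 0.149) or lin-15B (-0.52, 0.214). These genes averaged 4.94, 3.76, 577, 35.6 and 23.5 CPM in hda-3 gonads, against 5.73, 5.45, 838, 50.7 and 33.6 CPM in sin-3 gonads. Against wt, with the same 3 wt libraries, the sin-3 gonads had 276 higher genes (2.68%) and 507 lower genes (4.92%). Of the 4 sperm lists 1 gene was higher and 3 were lower, with a median of 0.80. Their share was 0.0271, 0.0909 and 0.129% in sin-3 replicates 3, 4 and 5, against 0.0340 to 0.0388% in wt. Also called higher in sin-3 gonads were C36H8.1 (3.55, adjusted p = 0.0210), T28H11.7 (4.35, 0.0496) and K01H12.4 (3.85, 0.0167). Not called were F58E6.5 (2.05, 0.345) and C08F11.10 (3.68, 0.0663).

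Genes that rose were spread unevenly over the chromosomes. On chromosome IV 21.1% of 1782 tested genes were called higher, on II 15.5% of 1857, on I 14.4% of 2001, on V 13.1% of 1638 and on III 9.88% of 1821. On the X chromosome 3.62% of 1187 were, 43 genes. Leaving the sperm lists out changed these shares to 19.3% on IV, 14.7% on II, 13.5% on I, 12.9% on V and 9.70% on III, and no gene of the sperm lists lay among the tested X-linked genes. The X had the lowest share and IV the highest in each of 13 fits, namely the 5 scalings and the 8 without 1 library. The median log2 fold change of X-linked genes was 0.32, and it lay between -0.08 and -0.01 on the 5 autosomes. The X share depended on libraries and scaling: it was 0.435% without hda-3 replicate 4, 1.03% without wt replicate 5, 2.2% without wt replicate 4, 13.6% without sin-3 replicate 5 and 15.9% with totals outside ribosomal RNA, where the autosomes were at 18.1 to 26.4%.

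**Figure D5:**
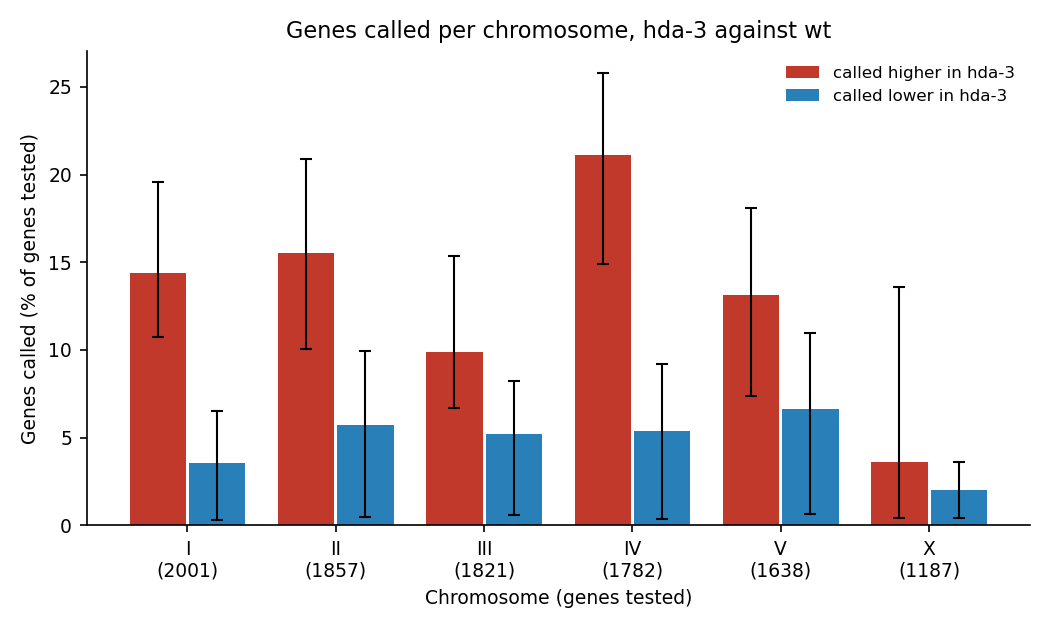
Genes called higher (red) and lower (blue) in hda-3 gonads, as a percentage of the genes tested on each nuclear chromosome. Error bars are the range over the 8 fits without 1 library; the red bar is highest on chromosome IV (21.1%) and lowest on X (3.62%).

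The authors' deposited table of the same comparison lists 12398 genes, of which 10475 have an adjusted p. At an adjusted p under 0.05 the authors' deposited table has 1313 genes higher and 519 lower (17.5% of those with an adjusted p). Of the rises called here by edgeR, 1166 are also called in the authors' deposited table, 83.9% of the edgeR calls and 88.8% of the authors'. Of the falls, 294 are in both, 58.7% of the edgeR calls and 56.6% of those in the authors' deposited table.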

How the data were processed

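RNA of dissected gonads was copied to cDNA, amplified as in Smart-seq2 and sequenced as 50-base single reads, per the labels. The authors deposited raw read counts per gene, 1 file per library. The submitters' processing notes list DESeq2 1.36.0, HTSeq 0.7.2, STAR 2.7.3a and fastp 0.20.1, without their roles. Strand setting, annotation and build: not given in the sources used here. Overlapping genes therefore cannot be told apart. The authors' deposited table holds a mean normalised signal, log2 fold changes and p-values. Its mean signal equals the mean recomputed from the counts for all 12398 genes within 1e-06. Coordinates are from the WBcel235 annotation, matched by gene identifier for 46923 of 46934.

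Lines of the counter that name no gene were dropped. Genes were kept by filterByExpr (minimum count 10, minimum total 15). edgeR 4.0.16 in R 4.3.3 was run with TMM factors and its quasi-likelihood test on all 8 libraries in 1 fit with a term per genotype. p-values were adjusted by Benjamini-Hochberg over all genes tested and called under 0.05. The SE is the log2 fold change divided by the root of F. The tests were checked on simulated data. Apart from 200 changed genes, every simulated library followed the wt profile with 1 fixed spread. The check therefore does not cover the scaling between groups or unequal spread between libraries. The replicate comparison of counts differed beyond sampling noise for every pair, so each library counts as 1 sample. Alternatives changed the scaling, the filter, the libraries fitted or the tool (DESeq2 1.42.0, and voom in limma 3.58.1).

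Genes and lists were chosen with earlier results of these data known. Named by rule were the deacetylase genes and sin-3, the 12 largest rises and 12 largest falls among called genes averaging at least 10 CPM with groups that do not overlap, and the 6 largest rises and falls in mean CPM. The rule also named the 8 largest rises outside the sperm lists and up to 4 called members of each list per direction. Other list members, and markers that were not called, were named after their values were seen.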

Additional observations from a re-analysis of the deposited data

How the results depend on the processing

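The count of sperm list members called higher stayed within 1.5 times its value under every alternative run, and so did the count of all higher genes. The total of 1891 called genes was 1048 to 2673 without 1 library. Lower genes (501) numbered 238 with RLE factors, 209 with TMM on autosomal genes, 34 with totals outside ribosomal RNA, 999 with DESeq2 on 5 libraries and 53 to 805 without 1 library. The log2 fold change of hda-3 was -0.78 with TMM on autosomal genes (adjusted p = 0.0519), -0.0805 with totals outside ribosomal RNA, and -1.2 to -0.76 without 1 library. Intestine markers called higher numbered 9 to 20 without 1 library. Ribosomal protein genes called lower (42) numbered 21 with RLE factors, 22 with autosomal TMM, 4 with totals, 26 with the stricter filter, 74 with only the 5 libraries, 73 and 74 with DESeq2 on 8 and 5 libraries, and 0 to 74 without 1 library. With the replicate number as a block, lower genes numbered 322, intestine markers higher 12, ribosomal protein genes lower 13 and MSP genes higher 19 of 29. Sperm chromatin genes higher were then 1 of 4, with spch-1, spch-2 and spch-3 at adjusted p of 0.130, 0.0547 and 0.118, and sperm list genes higher 69 of 106. Same-numbered hda-3 and wt libraries had deviations correlated at 0.0824 (replicate 4) and 0.292 (replicate 5), and 2 pairs do not settle whether the numbers mark a shared batch, which the labels do not state. Signs turned with totals for hda-1 (0.49), gld-1 (0.20), fog-2 (0.13), sun-1 (0.14), rde-4 (0.11), psf-2 (0.00407), chk-1 (0.33) and snb-1 (0.29). For hda-2 the value was 0.14 with RLE, 0.19 with autosomal TMM, 0.00856 with TMM outside the sperm lists, 0.90 with totals, 0.0659 with no filter, 0.0304 with the stricter filter, 0.16 with 5 libraries, 0.14 and 0.12 with DESeq2 on 8 and 5, and -0.12 to 0.17 in fits without 1 library. The cause was not tested. Of 99 called named genes, 47 kept their call without each library in turn. Leaving the sperm lists and intestine markers out of the count, an alternative chosen after seeing the data, gave 1280 higher genes. With 2 hda-3 libraries, genes of few reads are placed only coarsely.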

Other observations

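All tested genes were sorted by the prefix of their names, a grouping chosen after the data were seen. The families named in this paragraph have no member in the gene lists. Of 202 prefixes with at least 6 tested genes, irld (insulin and EGF receptor L-domain proteins) had 9 of 9 genes called higher in hda-3 gonads than in wt gonads, with a median log2 fold change of 5.40. The count was 7 to 9 in fits without 1 library. The msrp genes had 6 of 6 higher (median 6.87), and the ttbk genes, named for tau tubulin kinases, had 7 of 8 (6.26). The scrm genes, named for phospholipid scramblases, had 4 of 6 higher (6.04). All genes tested had 13.5% higher.

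Families known from the intestine were also among the higher ones. The lysozyme genes (lys) had 5 of 6 higher, with a median of 4.43, the aspartyl protease genes (asp) 6 of 8 (3.62) and the C-type lectin genes (clec) 20 of 49 (0.99). In fits without 1 library these counts were 4 to 5, 3 to 6 and 10 to 21. They partly repeat the intestine marker list, which holds 4 of the tested lys genes, 3 of the asp genes and 1 of the clec genes. None of these 7 prefixes had a member called lower by edgeR.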
